A study of Mus musculus with 2 samples.

Results

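Mesothelial cells form the single-layered lining of the peritoneal cavity, and 10 genes that mark them were followed in RNA from LPS-treated mouse peritoneal macrophages. The genes were taken by symbol from a list of marker names: Msln, Upk3b, Upk1b, Krt8, Krt18, Krt19, Krt7, Wt1, Lrrn4 and Gpm6a. All 10 were found among the 34728 genes of the deposited tables, and all 10 had a mean of at least 1 FPKM over both libraries. FPKM counts sequenced fragments scaled to transcript length and library size, so levels of different genes can be compared per length.

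The series holds 2 libraries, 1 labelled Kdm2b-/- (the knockout-labelled library) and 1 labelled wild type (the WT library), both from C57BL/6 mice. The macrophages were collected 4 days after a thioglycollate injection, a broth that draws leukocytes into the peritoneal cavity. Both were given bacterial lipopolysaccharide (LPS) at 100 ng/ml, for 4 h by the sample characteristics and for 3 h by the treatment protocol. The sources used here do not say how or in which cells Kdm2b was deleted, how old the mice were, or whether animals were pooled. With 1 library per genotype there are no replicates and no test across samples, so every difference below is one between these libraries.

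Mesothelial cells are mesoderm-derived but carry an epithelial set of keratins and junctions. Their simple keratins pair a type II chain (Krt7, Krt8) with a type I chain (Krt18, Krt19) in each filament, and Wt1 is the zinc finger factor that marks the mesothelium from the embryo on. Mesothelin (Msln) is a lipid-anchored surface protein, and the uroplakins Upk1b and Upk3b belong to a family of membrane proteins best known from the bladder lining. Lrrn4 is a leucine-rich repeat membrane protein, and Gpm6a is a membrane glycoprotein that is also found in neurons. Washing out the peritoneal cavity can bring detached mesothelial cells along with the macrophages.

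RefSeq promoter sequences (GRCm38.p6, 250 bases before to 50 after a start site) were matched for 6 of the 10 genes; Msln, Upk1b, Krt19 and Wt1 had no entry. Kdm2b has a zinc finger that binds unmethylated CG dinucleotides, so the bases before the start sites of 3 markers are shown with each CG in capitals: Krt18, which was lower in the knockout-labelled library, and Upk3b and Lrrn4, which were higher. Each stretch is given 5′ to 3′ on the strand of its gene and is limited to bases that no annotated exon covers. Krt18 is from chr15:102027966-102028179 on the plus strand, Upk3b from chr5:136038246-136038495 on the plus strand, and Lrrn4 from chr2:132880892-132881112 on the minus strand.
Krt18: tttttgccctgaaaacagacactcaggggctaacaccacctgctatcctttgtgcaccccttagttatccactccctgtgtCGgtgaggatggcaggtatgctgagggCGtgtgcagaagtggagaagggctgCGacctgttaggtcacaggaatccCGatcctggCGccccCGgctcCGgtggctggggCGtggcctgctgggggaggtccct
Upk3b: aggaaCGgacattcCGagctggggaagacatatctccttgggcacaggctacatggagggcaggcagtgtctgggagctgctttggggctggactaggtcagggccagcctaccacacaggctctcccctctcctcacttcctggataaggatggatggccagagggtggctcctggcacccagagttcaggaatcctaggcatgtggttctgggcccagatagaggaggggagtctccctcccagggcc
Lrrn4: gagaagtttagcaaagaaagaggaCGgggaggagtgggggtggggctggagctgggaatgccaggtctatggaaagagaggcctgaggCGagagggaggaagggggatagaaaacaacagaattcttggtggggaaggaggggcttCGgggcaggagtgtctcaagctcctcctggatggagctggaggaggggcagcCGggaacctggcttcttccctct
The printed stretches hold 8 CG in Krt18 (214 bases), 2 in Upk3b (250 bases) and 4 in Lrrn4 (221 bases). These counts are thus not for equal lengths, and the 3 markers were picked with their ratios known. Krt7, Krt8 and Gpm6a, which are not printed, were lower in the knockout-labelled library, like Krt18. Over the full 300 bases the promoters held 21 CG in Krt7, 17 in Krt18, 7 in Lrrn4, 6 in Krt8 and 2 in Upk3b, and the 2 promoters listed for Gpm6a held 4 and 6. The median over all 32851 RefSeq promoters of the same length was 7 (quartiles 3 and 20). Apart from Krt7 and Upk3b, these promoters lay within the quartiles. TATAAA, searched on both strands, was in the Krt8 promoter and in 1 of the Gpm6a promoters, against 13.6% of all promoters. GGGCGG, searched on both strands and itself holding a CG, was in the Krt7 promoter and the other Gpm6a promoter, against 35.7% of all. No binding or methylation was measured, so these counts describe the letters only.

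The libraries were close in depth, and macrophage genes were abundant in both. The FPKM values corresponded to about 26800000 fragments in the knockout-labelled library and 27300000 in the WT library. All 10 genes of a macrophage list (among them Cd68, Lyz2, Cd14 and Spi1) passed 1 FPKM, with a median log2 ratio of 0.00. They went both ways, from Adgre1 (0.35), Lyz2 (0.35) and Mertk (0.29) to Mrc1 (-0.25) and Cd14 (-0.33). The counting interval lay above 0 for 5 and below 0 for 2 of the 10, near the 43.0% and 20.3% of all genes. Of the T and NK cell genes Cd3e, Cd3d, Cd3g and Ncr1, and of the neutrophil genes Ly6g, Mpo and Retnlg, were at 0 in both libraries. The neutrophil gene S100a8 stood at 14.6 and 13.8 FPKM and S100a9 at 0.256 and 0.453 FPKM, and the T and NK cell list summed to 0.159 and 0.416 FPKM. The B cell list summed to 2.86 and 27.3 FPKM. Kdm2b itself stood at 0.326 FPKM in the knockout-labelled library and 0.205 FPKM in the WT library. That is about 45 and 29 fragments with the longest of its 20 annotated transcripts (5180 bases) as the length. The log2 ratio of Kdm2b had a 95% counting interval from -0.05 to 1.38 at that length. With the median transcript length (1267 bases) the fragments would be fewer and the interval wider. The gene-level value thus showed no loss of the transcript, and directions below are those of the labels.

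Mesothelial transcripts were present in both libraries at nearly the same summed level. The 10 markers added up to 119.6 FPKM in the knockout-labelled library and 120.8 FPKM in the WT library, a ratio of 0.990. The log2 ratio was -0.01, with an approximate counting interval of -0.06 to 0.03. Its width came from the pooled fragments of the markers and was centred on the ratio of the FPKM sums. The near equality holds on the deposited scale: with equal FPKM totals the log2 ratio of the sums was 0.079, with the median of all genes scaled to 0 it was -0.14, and without Upk3b it was -0.13. The sum was 0.0317% and 0.0300% of all FPKM. Macrophage genes were far more abundant: Lyz2, which encodes lysozyme, stood at 11409 and 8945 FPKM, and Cd68, a lysosomal membrane protein gene, at 1753 and 1722 FPKM. In such bulk RNA fewer cells of a type and less RNA per cell cannot be told apart.

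Within that sum the markers were split. The keratins Krt7, Krt8, Krt18 and Krt19 together stood at 36.3 FPKM in the knockout-labelled library and 45.6 FPKM in the WT library, a ratio of 0.798. The 6 other markers together stood at 83.3 and 75.2 FPKM, a ratio of 1.107. The other markers were thus 2.29 times the keratins in the knockout-labelled library and 1.65 times in the WT library. Upk3b, Lrrn4 and Wt1 were the markers above 0 by log2 ratio, and the other 7 were below 0. Over all 9039 genes that reached a mean of 1 FPKM, 36.8% were below 0.

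**Figure D1:**
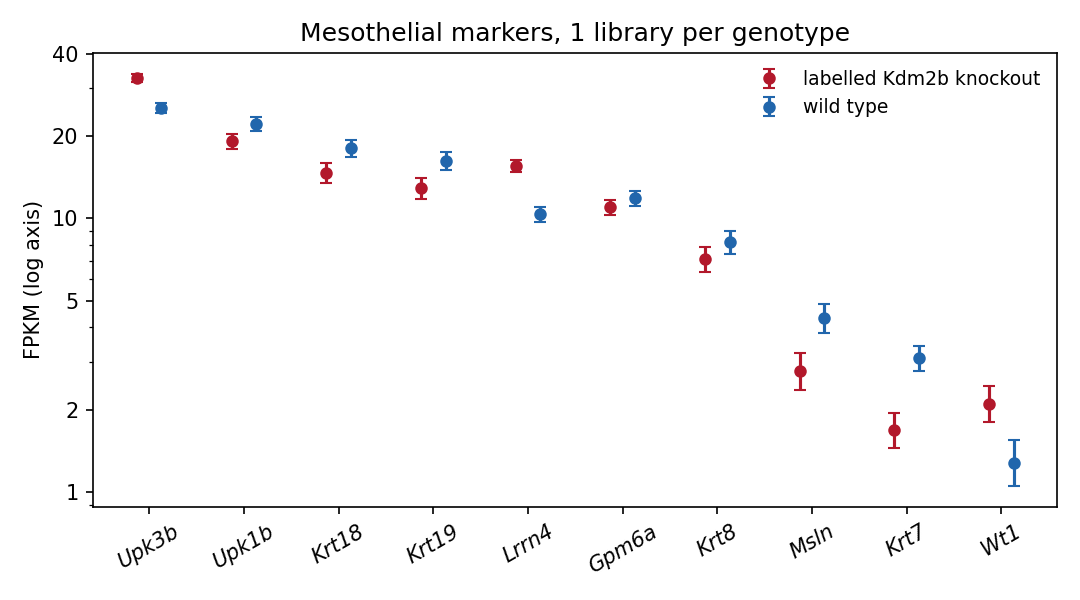
FPKM of the 10 mesothelial markers (log axis) in the knockout-labelled library (red) and the WT library (blue), ordered by mean level. Bars are exact 95% counting intervals within each library and hold no spread between animals. Upk3b, Lrrn4 and Wt1 are the markers whose red point lies above the blue one.

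Differences are given as the log2 of the ratio of the knockout-labelled library over the WT library, taken after adding 1 FPKM to each value, a step that shrinks the ratios of low genes. Unless called approximate, counting intervals are exact 95% Clopper-Pearson intervals of the log2 ratio without the added 1, from estimated fragments. They cover counting error only. Of the 10 markers 0 were 2-fold apart on the FPKM + 1 scale, where 1.88% of all genes were (0.863% higher and 1.02% lower). By the 1.5-fold rule Krt7 was lower and 0 markers were higher, 1 of 10 in all, against 7.5% of all genes (2.8% lower and 4.7% higher). The median log2 ratio of the markers was -0.19, against 0.10 over all genes. The counting interval left out 0 for 9 of 10 markers, 3 above and 6 below. With the libraries scaled to equal totals 4 lay below, those of Upk1b and Krt8 then holding 0. With equal upper quartiles, or with the median of all genes scaled to 0, 7 lay below and 3 above. At this depth, on the deposited scale, the interval left out 0 for 63.3% of all genes, 43.0% above and 20.3% below. Such an interval is thus common here and shows only that the libraries differed by more than fragment counting.

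Of the uroplakins, Upk3b was higher and Upk1b lower in the knockout-labelled library. Upk3b (ENSMUSG00000042985, chromosome 5, 136038496 to 136046487, GRCm38, plus strand) was the most abundant marker in both libraries, at 32.6 FPKM in the knockout-labelled library and 25.4 FPKM in the WT library. Its log2 ratio was 0.35, and some 3088 and 2441 fragments gave an interval of 0.29 to 0.44. Upk1b (ENSMUSG00000049436, chromosome 16, 38773184 to 38800328, minus strand), a tetraspanin, was the next in both, at 19.2 and 22.1 FPKM. Its log2 ratio was -0.19, with a counting interval of -0.33 to -0.08, or -0.23 to 0.015 with the libraries scaled to equal totals. The FPKM of Upk3b was 1.70 times that of Upk1b in the knockout-labelled library and 1.15 times in the WT library. The bladder uroplakin genes Upk1a, Upk2 and Upk3a, which make up the plaques of the urothelium with Upk1b, were at 0 in both libraries.

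The simple keratins were all lower in the knockout-labelled library, and the summed balance of their types was close in both. Krt18 (chromosome 15, 102028180 to 102032027, plus strand), the type I partner of Krt8, stood at 14.7 FPKM there and 18.0 FPKM in the WT library. Its log2 ratio was -0.28, with a counting interval of -0.46 to -0.13. Krt8 (chromosome 15, 101996698 to 102004482, minus strand) stood at 7.09 and 8.19 FPKM, a log2 ratio of -0.18 with an interval of -0.41 to -0.00 that only just left out 0. Krt19 (chromosome 11, 100140810 to 100148665, minus strand), the smallest type I keratin, stood at 12.9 and 16.2 FPKM, a log2 ratio of -0.31 with an interval of -0.50 to -0.17. In these 3 keratins the wild-type level was higher by similar amounts, and their intervals overlapped one another.

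Krt7 (ENSMUSG00000023039, chromosome 15, 101411043 to 101430313, plus strand), a type II keratin of glands and ducts that mesothelium shares, had the lowest ratio of the 10. It stood at 1.69 FPKM in the knockout-labelled library and 3.09 FPKM in the WT library, 0.547 times as much, with a log2 ratio of -0.60. That value lies at percentile 2.61 of all genes. Without the added 1 the log2 ratio was -0.87. The counting interval, also without it, was -1.14 to -0.61 with the longest annotated transcript (4094 bases) as the length. With the median of its 5 transcripts (690 bases) the interval was -1.56 to -0.23. Krt7 is thus the least abundant keratin of the 4 in both libraries and the one furthest apart. Type II keratins (Krt7 and Krt8) summed to 0.318 times the type I keratins (Krt18 and Krt19) in the knockout-labelled library and 0.329 times in the WT library. The log2 ratio between those balances was -0.05, with an approximate counting interval of -0.24 to 0.15, so the summed balance, most of whose type II part is Krt8, could not be told apart at this depth. Krt8 over Krt18 was 0.483 and 0.454, while Krt7 over Krt19 was 0.131 and 0.190. Krt8 and Krt7 each overlap an annotated gene on the opposite strand, and the library protocol describes no strand marking, so reads from such a partner cannot be told apart.

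Most keratin genes outside the markers were not detected. Of 54 keratin genes listed, 38 were at 0 in both libraries and 7 passed 1 FPKM, the 4 markers among them. Over all 34728 genes, 17532 were at 0 in both and 9039 passed. Krt14, a type I keratin of basal epithelial cells, stood at 4.86 FPKM in the knockout-labelled library and 8.57 FPKM in the WT library, a log2 ratio of -0.71 with a counting interval of -1.06 to -0.58. Its usual type II partner Krt5 was at 0 in both. Krt16 (0.501 and 1.76 FPKM, about 21 and 75 fragments) and Krt17 (0.337 and 1.21 FPKM, about 14 and 51 fragments), type I keratins of stressed skin, were lower as well; they were singled out after their values were seen. Krt16 and Krt17 resemble Krt14 closely in sequence, and reads could be shared among them. Krt23, an inducible type I keratin, went the other way, at 1.74 and 1.01 FPKM (log2 ratio 0.45, interval 0.23 to 1.37). Outside the markers, 2 of the 3 keratins past 1 FPKM were below 0, where 36.8% of all genes were.

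**Figure D2:**
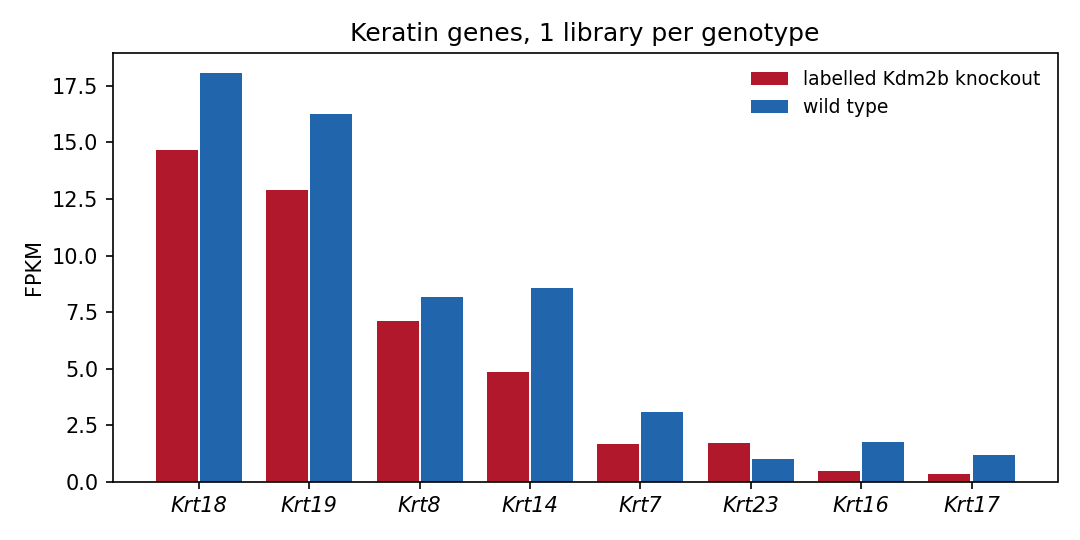
FPKM of the 8 most abundant keratin genes in the knockout-labelled library (red) and the WT library (blue), 1 library each, so the bars carry no error. The red bar is shorter for 7 of the 8, and Krt23 (1.74 and 1.01 FPKM) is the exception.

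Mesothelin differed from Lrrn4 and Wt1 in direction. Msln (ENSMUSG00000063011, chromosome 17, 25748613 to 25754378, minus strand) stood at 2.77 FPKM in the knockout-labelled library and 4.32 FPKM in the WT library. Its log2 ratio was -0.50, at percentile 3.88 of all genes, and its counting interval was -0.93 to -0.35, or -1.14 to -0.15 with the median length of its 9 annotated transcripts. Lrrn4 (ENSMUSG00000043110, chromosome 2, 132868305 to 132880891, minus strand) stood at 15.6 and 10.3 FPKM, from about 1553 and 1048 fragments. Its log2 ratio of 0.55 was the highest of the 10, at percentile 94.0 of all genes, with a counting interval of 0.48 to 0.71. The FPKM of Lrrn4 was 5.63 times that of Msln in the knockout-labelled library and 2.40 times in the WT library.

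Wt1 (ENSMUSG00000016458, chromosome 2, 105126529 to 105173616, plus strand) is the transcription factor of the list, and it was low in both libraries. It stood at 2.10 FPKM in the knockout-labelled library and 1.28 FPKM in the WT library, 1.64 times as much, with a log2 ratio of 0.44. Some 174 and 108 fragments gave an interval of 0.36 to 1.07, or 0.21 to 1.23 with the median length of its 9 transcripts. Wt1os, the antisense RNA gene that starts beside it, stood at 0.175 and 0.161 FPKM. Gpm6a (ENSMUSG00000031517, chromosome 8, 54954843 to 55060871, plus strand) was the marker closest to equal, at 10.97 and 11.8 FPKM, with a log2 ratio of -0.10 and a counting interval of -0.24 to 0.02. Its locus overlaps 5 other annotated genes on the same strand, which had no row of their own in the tables, so its value is uncertain for that reason. Its relative Gpm6b stood at 0.211 and 0.207 FPKM.

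**Figure D3:**
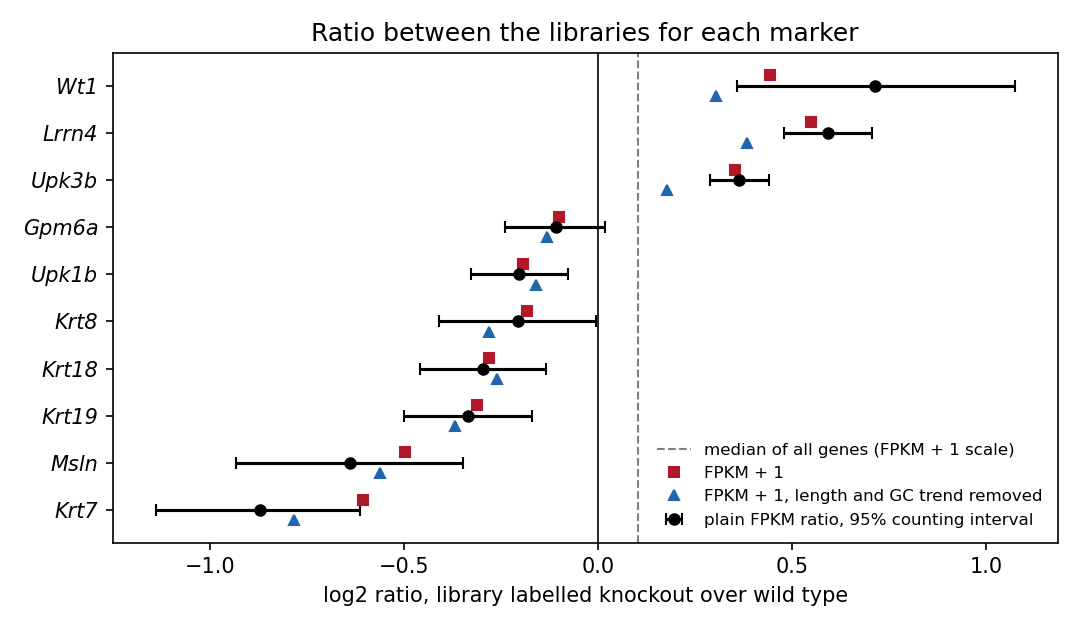
Log2 ratio of the knockout-labelled library over the WT library for each marker: the plain FPKM ratio with its 95% counting interval (black), the ratio on FPKM + 1 (red squares) and that ratio with the trend in transcript length and GC content removed (blue triangles). The dashed line is the median of all genes (0.10). Wt1, Lrrn4 and Upk3b lie to the right of 0 by each measure and the other 7 markers to the left.

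Ordered by level, the markers kept Upk3b and Upk1b on top in both libraries, and the middle and the bottom changed places. In the knockout-labelled library the order went on with Lrrn4, Krt18, Krt19, Gpm6a, Krt8, Msln, Wt1 and Krt7. Counting intervals overlapped there between Lrrn4 and Krt18, Krt18 and Krt19, Msln and Wt1, and Wt1 and Krt7, so these neighbours could not be ranked. In the WT library the order was Krt18, Krt19, Gpm6a, Lrrn4, Krt8, Msln, Krt7 and Wt1 after the uroplakins, and Krt18 and Krt19 were the neighbours whose intervals overlapped. Lrrn4 made up 8.56% of the summed marker FPKM in the WT library and 13.04% in the knockout-labelled library. Upk3b made up 20.99% and 27.3% of the sum in the same order, and Krt18 14.9% and 12.3%.

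Transcript length moved with the log2 ratio over all genes, and the markers spread over deciles of short and middle length. The median log2 ratio was -0.23 in the decile of genes with the shortest transcripts (132 to 1197 bases) and 0.29 in the decile with the longest. Krt18 (1437 bases) and Krt19 (1576 bases) are in the decile with a median of -0.09, and Msln, Upk1b and Krt8 in that with a median of -0.01. Wt1 (median 0.10), Upk3b and Gpm6a (median 0.14), and Lrrn4 and Krt7 (median 0.15) are in longer ones, with Krt7, the marker of lowest ratio, in the same decile as Lrrn4, that of the highest. Across the 10 markers Spearman's rho between log2 ratio and length was 0.28, against 0.46 across 9017 genes; genes share the libraries and are not independent replicates. With the trend in length and GC content removed, each marker was on the same side of 0: Lrrn4 was at 0.38, Wt1 at 0.30 and Upk3b at 0.18, while Gpm6a was at -0.13, Upk1b at -0.16, Krt18 at -0.26, Krt8 at -0.28, Krt19 at -0.37, Msln at -0.56 and Krt7 at -0.78. The difference of Upk3b and Lrrn4 was thus smaller after that step and that of Krt7 and Msln larger.

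**Figure D4:**
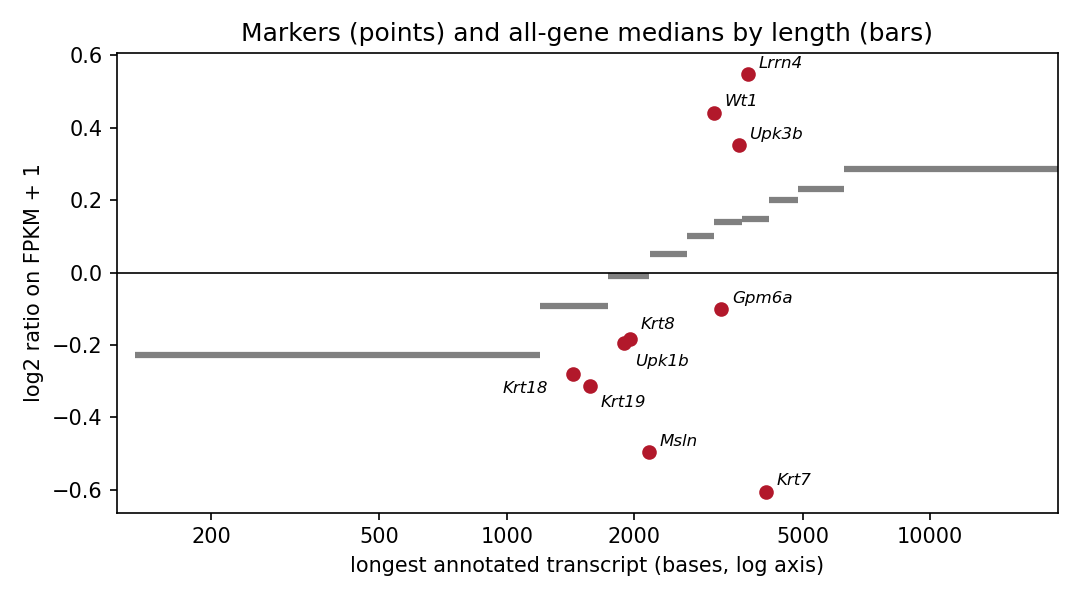
Log2 ratio on FPKM + 1 of the 10 markers (red points) against the length of their longest annotated transcript (log axis), with the median log2 ratio of all genes in each decile by length (grey bars, from -0.23 to 0.29). The last bar runs past the end of the axis. Lrrn4, Wt1 and Upk3b lie above the bars of their length, and the other 7 markers below.

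Other genes that mesothelial cells express, from a list of 30 of which 29 were found, went both ways as well. Of the 17 past 1 FPKM, 12 were above 0 and 5 below, where 63.2% of all genes were above 0, with a median log2 ratio of 0.23 against 0.10 over all genes. One, the cell adhesion gene Cdh2 (N-cadherin, 5.31 FPKM in the knockout-labelled library and 1.97 FPKM in the WT library), was at least 2-fold higher on the FPKM + 1 scale, at 1.09, and 0 were 2-fold lower, against 0.863% and 1.02% of all genes. Cdh2 was at 0.88 with the length trend removed and 0.87 with length and GC removed, and then 0 of the 17 were 2-fold apart. With the length trend removed, 51 of about 9017 genes in all were 2-fold higher and 85 lower. The most abundant were the podoplanin gene Pdpn (481 and 590 FPKM), the membrane-to-actin linker gene Ezr (103 and 64.7 FPKM), the protease inhibitor gene Slpi (77.9 and 111 FPKM) and complement C3 (91.6 and 85.1 FPKM). These 4 are also expressed by macrophages, so their levels cannot be assigned to mesothelium. At 1.5-fold, 5 of the 17 were higher, against 4.7% of all genes: Cdh2, Ezr, the P-cadherin gene Cdh3 (8.55 and 4.08 FPKM), Podxl (3.10 and 1.26 FPKM), which encodes the surface sialomucin podocalyxin, and the zinc finger gene Bnc1 (2.28 and 0.796 FPKM). One was 1.5-fold lower, against 2.8% of all genes: Rarres2 (0.631 and 1.47 FPKM), which encodes the attractant chemerin. With the length trend removed Ezr was at 0.53, under 1.5-fold, and with length and GC removed at 0.49. Past 1.5-fold with the length trend removed were Cdh3 (0.73), Podxl (0.65), Bnc1 (0.66) and Rarres2 (-0.66). Apart from Cdh2 and the 4 most abundant, the genes named here were chosen after their values were seen. Calb2, which encodes calretinin, was at 0 in the knockout-labelled library and at 0.103 FPKM (about 4 fragments) in the WT library.

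Genes of other epithelia were mostly at or near 0. Of 16 listed, 8 were at 0 in both libraries and 2, Krt14 and Krt23, passed 1 FPKM. Over all 34728 genes, 17532 were at 0 in both and 9039 passed, so being at 0 was common here. Epcam, the pan-epithelial adhesion gene, stood at 0.110 and 0.072 FPKM, and Cdh1, which encodes E-cadherin, at 0.014 and 0.007 FPKM. Of the classical cadherin genes listed, Cdh2 and Cdh3 thus passed 1 FPKM and Cdh1 did not. Of 6 endothelial genes 1 passed, the VEGF receptor gene Kdr (log2 ratio 0.27). Among relatives or neighbours of the markers, Mslnl, Gpm6b, Lrrn1, Lrrn2, Lrrn3, Krt80, Wt1os and Upk3bl were under 1 FPKM, and Mslnl and Lrrn1 were at 0 in both libraries.

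Desmosomes are the junctions that anchor keratin filaments, and genes for them went both ways. Of 12 genes of desmosomes and filament linkers, 6 passed 1 FPKM. Of these, 3 were above 0 and 3 below, where 63.2% of all genes were above 0. Pkp2, which encodes the desmosomal plaque protein plakophilin-2, stood at 0.214 FPKM in the knockout-labelled library and 3.89 FPKM in the WT library, about 17 and 311 fragments. Its log2 ratio was -2.01 on the FPKM + 1 scale, with a counting interval of -4.97 to -3.47 without the added 1, and it was the 1 gene of this list at least 2-fold lower, against 1.02% of all genes, with 0 at least 2-fold higher. Dsg2, the desmosomal cadherin, stood at 1.75 and 4.05 FPKM, a plain ratio of 0.431. Its log2 ratio was -0.88 on the FPKM + 1 scale, with a counting interval of -1.43 to -1.01 without the added 1. With the length trend removed Pkp2 and Dsg2 were both at least 2-fold lower, as 85 of about 9017 genes in all were. Jup, which encodes the plaque protein plakoglobin, was on the other side, at 2.87 and 2.17 FPKM (log2 ratio 0.29). Dsp, which encodes desmoplakin, the protein that ties desmosomes to keratin, was at 0.038 and 0.058 FPKM. Plec, which encodes the linker plectin, stood at 4.27 and 1.64 FPKM (0.99), but shares its strand with the overlapping gene Parp10 and its longest transcript is in the decile of genes with the highest median ratio. The filament gene Vim, expressed by macrophages, fibroblasts and mesothelium alike, was at 320 and 339 FPKM.

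**Figure D5:**
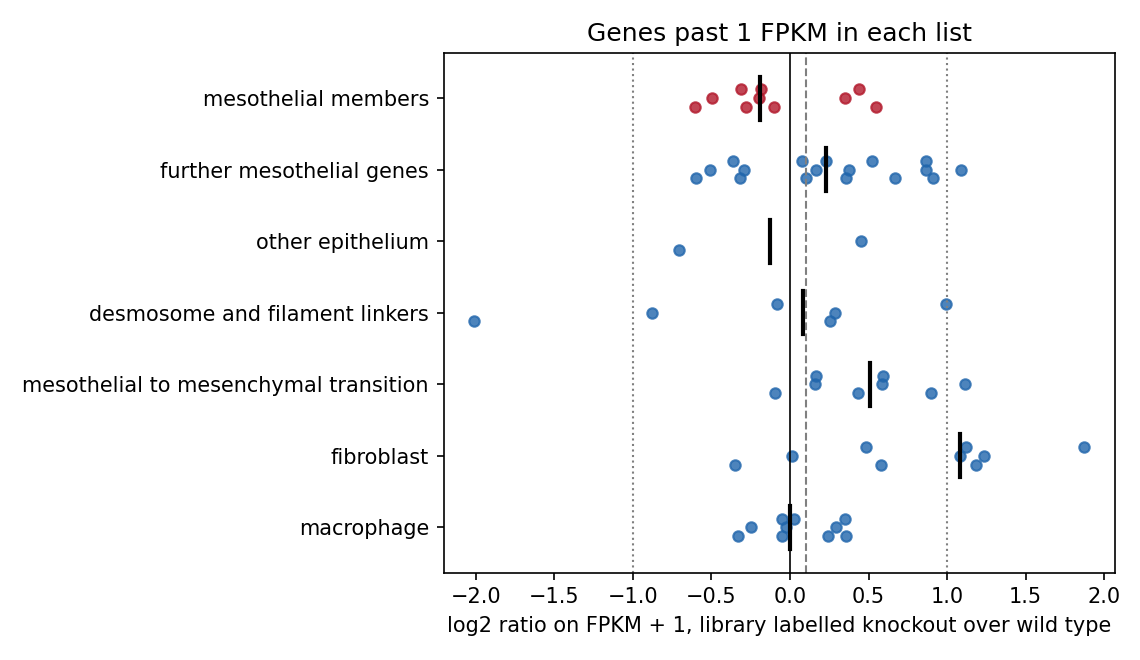
Log2 ratio on FPKM + 1 of each gene past 1 FPKM, by list; the 10 markers are in red, black bars are list medians, the dashed line is the median of all genes (0.10) and dotted lines are 2-fold. The markers lie between the dotted lines (median -0.19), while 5 of 9 fibroblast genes lie beyond the upper one and Pkp2 beyond the lower one.

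Most fibroblast genes past 1 FPKM were higher in the knockout-labelled library, while the mesothelial markers went both ways. Of 12 listed, 9 passed 1 FPKM, with a median log2 ratio of 1.08. Of these, 8 were above 0 and 1 below, where 63.2% of all genes were above 0. The 1 below was Lum (log2 ratio -0.35, counting interval -0.54 to -0.23), named after its value was seen. The 5 at least 2-fold higher were Col1a1 (16.0 FPKM in the knockout-labelled library and 3.63 FPKM in the WT library), Col1a2, Col3a1, Bgn and Sparc, against 0.863% of all genes. With the length trend removed 4 of the 9 were 2-fold higher, and with length and GC removed 2 were, Col1a1 (1.49) and Sparc (1.003). Of about 9017 genes in all, 51 and 44 were 2-fold higher in these settings. The summed FPKM of the list was 542 and 388, a ratio of 1.399, beside 0.990 for the mesothelial markers. Dcn, the proteoglycan decorin and the most abundant of them, was at 251 and 248 FPKM. Its log2 ratio was 0.02, with a counting interval of -0.01 to 0.04 that held 0, and -0.19 with the length trend removed. Genes linked to the shift of mesothelial cells to a mesenchymal state had 8 of 12 found past 1 FPKM, with a median of 0.51. Of these, 7 were above 0 and 1 below, against the same 63.2% of all genes above 0. Fn1, the fibronectin gene, was the 1 at least 2-fold higher (62.3 and 28.3 FPKM, log2 ratio 1.11), and it was at 0.82 with the length trend removed and 0.78 with length and GC removed, under 2-fold. Acta2 (113 and 74.9 FPKM) and Tagln (84.6 and 44.9 FPKM), contractile genes of smooth muscle and myofibroblasts, were at 0.59 and 0.90. Fibroblasts and muscle cells express these genes too. The B cell genes Ighm (0.992 and 6.92 FPKM) and Igkc (1.47 and 18.9 FPKM) were lower in the knockout-labelled library. The part of any of these other cell types in the marker differences was not tested.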

How the data were processed

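RNA sequencing of 2 libraries was used, 1 per genotype. Per the file headers, the authors deposited FPKM, 1 value per Ensembl gene in each library. Tools named in the submitters' processing notes are StringTie 1.3.0, HISAT2 2.0.4 and edgeR, and the builds are mm10 and GRCm38.p4; the sources used here do not give their roles, the annotation or filters. FPKM depends on the transcript length assumed and on the abundant genes of a library.

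Symbols were found for 34267 of 34745 IDs, and FPKM was summed for 17 symbols with several IDs. Coordinates, lengths (longest transcript) and GC content came from GENCODE M21 (GRCm38). Fragments were estimated from FPKM times length, which for 92.5% and 92.2% of low single-transcript genes (under 20 fragments) was a whole multiple of 1 step within 0.02 of a fragment. Log2 ratios used a pseudocount of 1 FPKM and a floor of 1 FPKM on the mean. Calculations were run in Python 3.11.15 with scipy 1.17.1 and tested on simulated data.

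The markers and lists were chosen with earlier results of these data known. The text names all 10 markers and, in the lists, genes past 2-fold and the 4 most abundant; others are stated as chosen after their values were seen. No test across samples was possible. Alternatives were other pseudocounts, scalings, floors and folds, and removal of length and GC trends in 20 bins; omitting the pseudocount, and the median transcript length and other scalings for the counting intervals, and list counts without the trends, were added after seeing the data. Some listed genes are not reported here.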

Additional observations from a re-analysis of the deposited data

How the results depend on the processing

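Each of the 10 markers kept its direction under all 8 alternatives run for it (pseudocounts of 0.1, 5 and none, 3 scalings, and removal of the length trend or of the length and GC trends). The log2 ratio ranged from 0.38 to 0.64 for Lrrn4, 0.18 to 0.71 for Wt1, 0.18 to 0.44 for Upk3b, -0.24 to -0.01 for Gpm6a, -0.32 to -0.10 for Upk1b, -0.30 to -0.10 for Krt8, -0.40 to -0.16 for Krt18, -0.43 to -0.23 for Krt19, -0.64 to -0.26 for Msln and -0.87 to -0.27 for Krt7. The median of the markers ranged from -0.31 to -0.10. The log2 ratio of their sums was -0.13 without Upk3b, 0.079 with equal totals and -0.14 with the median of all genes scaled to 0, so the near equality of the sums depends on the scale. With Krt8 over Krt18 alone the balance of keratin types was 0.09 in place of -0.05. At 1.5-fold 1 marker was lower. With equal totals the counting interval lay below 0 for 4 markers in place of 6, those of Upk1b and Krt8 then holding 0. With equal upper quartiles, or with the median of all genes scaled to 0, it lay below 0 for 7. For all genes, the higher and lower counts were 425 and 253 at 1.5-fold, 5 and 18 at 4-fold, 14 and 33 with a pseudocount of 5 and 35 and 48 at a floor of 5 FPKM, against 78 and 92. The higher count was 174 with a pseudocount of 0.1, 44 with the median scaled to 0, 51 with the length trend removed and 44 with length and GC removed. The fibroblast median was 0.88 with a pseudocount of 5, 0.95 with the median scaled to 0, 0.92 and 0.89 with the length and the length and GC trends removed, and 0.58 with no floor. In the same order the mesenchymal-transition median was 0.41, 0.39, 0.38, 0.37 and 0.36, and 0.60 with equal totals. The macrophage median was -0.12 with the median scaled to 0, 0.093 with equal totals and -0.073 with length and GC removed. Beyond what each construction changes, the cause was not tested. No paired analysis was possible because each genotype has 1 library.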
